A study of Mus musculus with 4 samples.

Results

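The 10 genes described here encode pancreatic digestive enzymes and their helper protein colipase: the trypsinogens 2210010C04Rik, Try4 and Try5, the chymotrypsinogen Ctrb1, the elastases Cela1 and Cela2a, the carboxypeptidases Cpa1 and Cpb1, and the lipid-digesting pair Clps and Cel. They were taken by symbol, and all 10 were among the 15835 genes of the table. The libraries hold polyA RNA of group 2 innate lymphoid cells (ILC2) of Langerhans islets from C57BL/6j mice that were fasted or fed, 4 libraries in each group; fasting time, age and sex were not given in the sources used here. ILC2 are tissue-resident lymphocytes that release type 2 cytokines, and the study asked how fasting bears on their function. Libraries carry the number in their column names (1, 3, 4 and 5) after the group, and those named control were taken as fed. The labels do not tie them to separate mice, and p-values therefore cover only how these libraries vary, some of which may be technical.

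As background, these proteins are made by the acinar cells of the exocrine pancreas around the islets, stored in zymogen granules and released into the duodenum after a meal. ILC2 are not known to make them. The proteases are secreted as inactive precursors, and trypsin, once activated in the gut, activates the others. Acinar enzyme genes share a transcription factor, PTF1, built from PTF1A, an E protein and RBPJL, which binds an E-box (CANNTG) next to a TC-box (TTTCCC).

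The trypsinogen genes lie together on chromosome 6 of GRCm38, inside the annotated T cell receptor beta locus at chr6:40891229-41558452, which holds 53 genes. 2210010C04Rik is at chr6:41030268-41035509 on the minus strand, Try4 at chr6:41302269-41305532 on the plus strand and Try5 at chr6:41311233-41316841 on the minus strand. Cpa1 lies elsewhere on that chromosome, at chr6:30639218-30645363 (plus). Ctrb1 is at chr8:111686519-111691010 (minus), Cela1 at chr15:100674421-100687921 (minus), and Cela2a at chr4:141814962-141826160 (minus). Cpb1 is at chr3:20248264-20275733 (minus), Clps at chr17:28558149-28560766 (minus) and Cel at chr2:28555795-28563403 (minus). All 10 are annotated as protein-coding.

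Promoters, from 250 bases before to 50 bases after the start, were matched in RefSeq (GRCm38.p6) for 8 of the 10 genes, all but Clps and Try5. TATAAA on the gene's strand was found in 4 of the 8, against 8.88% of 27025 promoters of the same length. TTTCCC on either strand was in 5 of 8, against 25.2%, and CANNTG was in 8 of 8, against 72.1%. A TTTCCC and a CANNTG within 25 bases of each other, in either order, occurred in 4 of 8 (Cel, Cpa1, Ctrb1 and Cela1), against 5.56% of all promoters. The motifs and the distance were chosen with these sequences in view, and a match is a description of letters, not a bound site. The promoters with the pair are printed 5′ to 3′ because they carry the PTF1-type letters, with that of 2210010C04Rik, the most abundant enzyme, which has TATAAA and no pair; capitals mark the pair and TATAAA.
Cel, minus strand, chr2:28563354-28563653: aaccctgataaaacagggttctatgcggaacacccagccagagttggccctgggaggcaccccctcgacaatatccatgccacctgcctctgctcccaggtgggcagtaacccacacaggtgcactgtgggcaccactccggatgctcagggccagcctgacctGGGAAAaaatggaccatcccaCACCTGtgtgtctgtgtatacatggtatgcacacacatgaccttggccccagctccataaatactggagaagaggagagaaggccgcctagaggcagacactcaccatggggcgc
Cpa1, plus strand, chr6:30638968-30639267: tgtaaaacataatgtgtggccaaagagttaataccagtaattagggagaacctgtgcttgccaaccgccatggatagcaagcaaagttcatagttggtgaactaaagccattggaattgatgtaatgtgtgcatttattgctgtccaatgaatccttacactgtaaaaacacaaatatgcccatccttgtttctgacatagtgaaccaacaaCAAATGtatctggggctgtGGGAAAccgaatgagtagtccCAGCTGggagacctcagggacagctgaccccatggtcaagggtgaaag
Ctrb1, minus strand, chr8:111690961-111691260: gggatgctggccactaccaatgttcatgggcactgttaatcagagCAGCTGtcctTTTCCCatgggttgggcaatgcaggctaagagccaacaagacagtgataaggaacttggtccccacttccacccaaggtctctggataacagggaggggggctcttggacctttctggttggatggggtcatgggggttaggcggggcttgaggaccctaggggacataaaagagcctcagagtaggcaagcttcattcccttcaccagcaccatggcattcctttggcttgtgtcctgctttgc
Cela1, minus strand, chr15:100687871-100688170: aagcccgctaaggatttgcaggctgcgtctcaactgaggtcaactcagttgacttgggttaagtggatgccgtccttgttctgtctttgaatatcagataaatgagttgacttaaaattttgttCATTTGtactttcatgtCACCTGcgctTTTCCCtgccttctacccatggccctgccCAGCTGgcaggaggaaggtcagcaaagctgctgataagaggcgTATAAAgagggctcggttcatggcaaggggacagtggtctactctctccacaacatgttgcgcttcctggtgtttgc
2210010C04Rik, minus strand, chr6:41035460-41035759: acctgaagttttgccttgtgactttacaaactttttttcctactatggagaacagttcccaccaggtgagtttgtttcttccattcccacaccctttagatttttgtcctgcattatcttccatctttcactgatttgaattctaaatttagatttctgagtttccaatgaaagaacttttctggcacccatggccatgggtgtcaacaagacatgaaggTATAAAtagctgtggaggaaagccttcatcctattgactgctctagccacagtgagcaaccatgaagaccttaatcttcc
Ctrb1 has 4 bases between its TTTCCC and CANNTG, and Cela1 has 3 such pairings, with gaps of 21, 4 and 23 bases. TATAAA begins 30 bases before the annotated start of 2210010C04Rik, 31 before that of Try4 and 27 before that of Cela1, while in Cpb1 it lies after the start, at position 36.

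Enzyme transcripts filled much of most libraries. Together the 10 genes took 2.52%, 2.82%, 58.3% and 57.8% of all counts in fasted libraries 1, 3, 4 and 5, against 35.9%, 40.3%, 61.8% and 54.7% in fed libraries 1, 3, 4 and 5. Fasted libraries 1 and 3 stood apart, far below the other 6, while fasted 4 and 5 lay inside the fed range. The means were 30.4% ± 32.0 in fasted and 48.2% ± 12.1 in fed libraries (SD, n = 4 each), a difference of -17.8 percentage points that is smaller than the fasted SD. Without fasted 1 and 3 the difference was 9.90 points, in the other direction. In these bulk libraries, fewer acinar cells and less enzyme RNA per cell cannot be told apart.

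**Figure D1:**
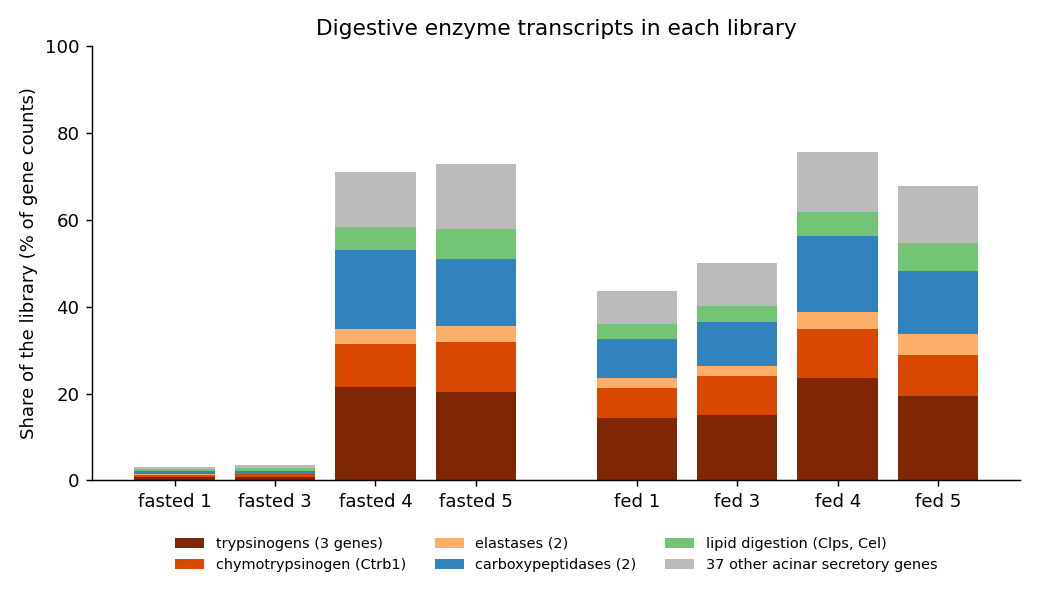
Stacked bars give the share of each library's gene counts, in percent, taken by the enzymes by class and by 37 other acinar secretory genes, for fasted libraries at left and fed libraries at right. Fasted 1 and 3 hold 2.52% and 2.82% enzyme counts, and the other 6 libraries hold 35.9% to 61.8%.

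Depth and markers of other cells were set beside these shares. Totals were 2041697 to 9366807 counts in fasted and 1797504 to 25252366 counts in fed libraries, with 9537 to 14056 genes detected. The 13 listed ILC2 markers, led by Thy1 in all 8 libraries, summed to 5053, 5785, 1631 and 1378 CPM (counts scaled to the library total) in fasted 1, 3, 4 and 5, against 3384, 3717, 1065 and 1771 CPM in fed 1, 3, 4 and 5. There were 4.99, 4.87, 358 and 420 enzyme counts per ILC2 marker count in the fasted libraries, against 106, 108, 580 and 309 in the fed ones. Libraries 1 and 3 were thus lower than 4 and 5 in both groups, and fed exceeded fasted 21.2-fold and 22.2-fold at numbers 1 and 3 and 1.62-fold at number 4. At number 5 fasted was the higher, 1.36-fold over fed. Insulin was close to absent, with 0 to 73 Ins2 counts per library, and the 9 listed islet genes, mostly Gnas, summed to 350 to 1098 CPM in fasted and 450 to 821 CPM in fed libraries. The 9 ductal markers summed to 24.0 to 192 CPM in fasted libraries, lowest in 1 and 3, and to 122 to 216 CPM in fed libraries. Krt8 led them except in fasted 1 and 3, where Muc1 had 86 and 43 counts and Krt8 14 and 12. The 37 other acinar secretory genes took 0.59%, 0.66%, 12.6% and 14.9% of the fasted libraries, against 7.79%, 9.81%, 13.9% and 13.1% of the fed ones. The 8 endothelial and stromal markers ran from 6.19 to 172 CPM in fasted and from 11.7 to 57.2 CPM in fed libraries, with 7.84 and 172 CPM in fasted 1 and 3, whose enzyme shares were alike. The 10 other immune markers ran from 62.5 to 464 CPM in fasted and from 53.1 to 115 CPM in fed libraries. The part of any of these in the enzyme results was not tested.

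Against this spread, no enzyme passed the test of its level between fasted and fed. With edgeR's quasi-likelihood test on TMM-scaled libraries, 0 of the 10 passed an adjusted p of 0.05, against 0.0% of 7700 genes tested; 0 of the 10 and 338 of 7700 had an unadjusted p under 0.05. DESeq2 called 0 of the 10 as well, and 8 other genes. All 10 fitted log2 fold changes were negative, with a median of -0.40 (-0.00 over all genes tested), and the standard errors were 1.18 to 1.43. The largest fitted value was that of Cela2a, -0.69 ± 1.41 (log2, SE, adjusted p = 1.00), and the smallest that of Clps, -0.18 ± 1.18. With the column number as a block the median was -2.41, and 0 of 10 were called. Without fasted 1 and 3 all 10 were positive, with a median of 0.60, and 0 of 10 were called.

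Over all 8 libraries the make-up of the enzyme counts varied less than their amount, mainly because fasted 1 and 3 hold so few. Between the lowest and the highest of the 8 libraries, the share of the library taken by an enzyme ran over 14.6-fold (Clps) to 45.9-fold (Cela2a). Its share of the 10 enzymes ran over 1.31-fold (2210010C04Rik) to 2.74-fold (Try5) for 9 of them, and 4.06-fold for Clps. Over the 6 libraries other than fasted 1 and 3 the gap was much smaller: the share of the library ran over 1.57-fold (Try4) to 3.09-fold (Try5), and the share of the 10 enzymes over 1.16-fold (2210010C04Rik) to 2.74-fold (Try5). The second range was the narrower for 9 of the 10 enzymes and the wider for Try4, at 1.96-fold against 1.57-fold. 2210010C04Rik ranked first of the 10 in all 8 libraries, and Cpa1 and Ctrb1 held the next places in all 8. The lower places were not fixed: Cpb1 took places 4 to 7, and Clps places 4 to 6. The largest Wilson 95% half-width of any such share was 0.387 percentage points, which covers counting error only, so most differences between libraries exceeded it.

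**Figure D2:**
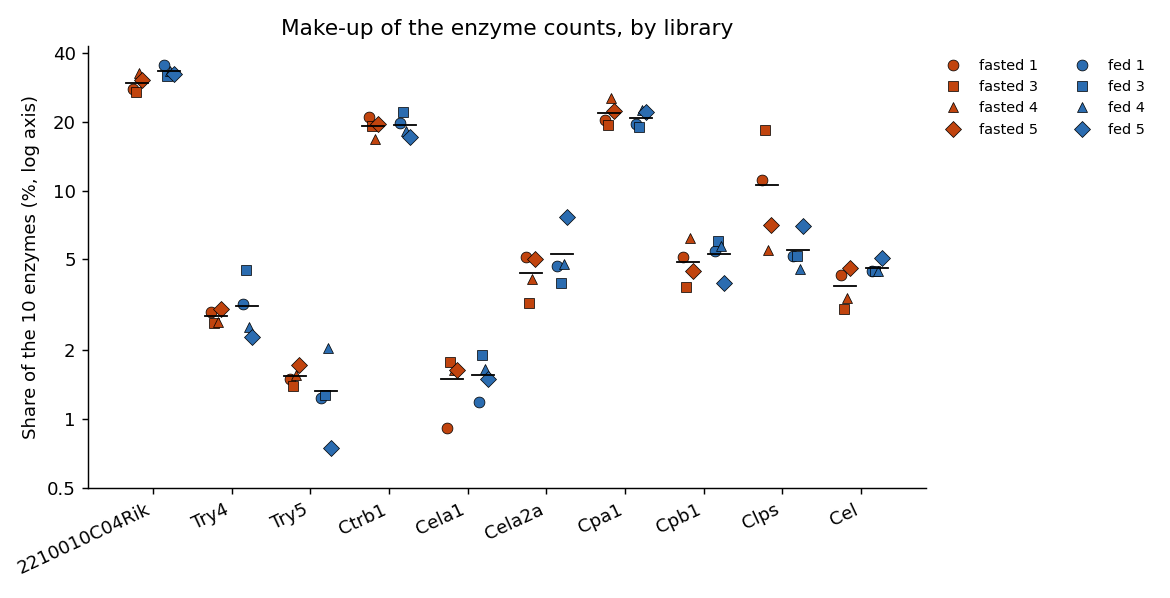
Share of each enzyme within the summed counts of the 10 enzymes (percent, log axis), with fasted libraries at left and fed at right of each gene; each symbol is a library number and black lines are means of 4. The groups overlap for all 10 genes, and Clps in fasted 1 and 3 (11.1% and 18.5%) lies above its other 6 values.

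Each enzyme was then set against the other 9 within its library, a ratio that needs no scaling factor. None of the 10 passed an exact two-sided permutation test over the 70 assignments of libraries, whose smallest possible p is 0.0286, with p-values not adjusted for the 10 tests. These assignments ignore the library number. Paired by number, no exact test, here or below, could go below 0.125. The groups overlapped for all 10, and 3 ratios were higher and 7 lower in fasted libraries. Per enzyme count, 21 of the 7700 genes tested (0.273%) did not overlap between the groups, and 0 of the 10 enzymes were among them. Genes of other cells, such as Thy1, were far higher on this scale in fasted 1 and 3 than in the other libraries. The 0.273% is therefore not a chance rate for acinar genes. On TMM-scaled CPM, 271 of the 7700 did not overlap, with 0 of the 10 enzymes among them.

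Trypsinogens open the protease cascade. 2210010C04Rik, annotated here by its clone name only, made up 27.7%, 27.0%, 32.8% and 30.6% of the enzyme counts in fasted 1, 3, 4 and 5, against 35.4%, 31.6%, 33.4% and 32.4% in fed 1, 3, 4 and 5. Fasted libraries 1, 3 and 5 lay below every fed library, and fasted 4 lay within the fed range. Its log2 ratio to the other 9 was -0.25 ± 0.11 (fasted minus fed, SE), lower in fasted at 4 of 4 numbers (exact p = 0.0857). Without fasted 4 it was -0.32 (exact p = 0.0286). That library was the only fasted one within the fed range, so leaving it out removed the overlap and this p is no further support. Without fasted 1 and 3 the log2 ratio was -0.10. Try4 made up 2.94%, 2.65%, 2.66% and 3.03% of the enzyme counts in fasted libraries, against 3.20%, 4.48%, 2.53% and 2.29% in fed libraries. Try5 made up 1.50%, 1.39%, 1.57% and 1.72% in fasted libraries, against 1.24%, 1.28%, 2.06% and 0.75% in fed ones. For both, the fed libraries were the more spread and enclosed every fasted value. The log2 differences of the ratio were -0.11 ± 0.23 for Try4 (exact p = 0.714) and 0.30 ± 0.31 for Try5 (exact p = 0.429). Without fed 4 that of Try5 was 0.54 (exact p = 0.0286). Fed 4 holds the highest Try5 value and is the only fed library above the fasted ones. Leaving it out thus removed the overlap, and this p is no further support.

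Counts of Try4 and Try5 are uncertain as single genes. In the GENCODE vM21 transcripts they were 97.1% identical, and 55 of the 251 50-base words in the last 300 bases of Try4, where a 3′ method reads, also occurred in Try5. Try4 shared 62 such words with Try10, a further trypsinogen with 10719 counts in all. Prss2, another trypsinogen outside the 10 genes, had 752234 counts in all and shared 8 such words with Try4 and 13 with Try5. 2210010C04Rik shared 0 with any of them. Summed, the 3 trypsinogens gave a log2 ratio of -0.24 to the other 7 enzymes (exact p = 0.0571).

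Ctrb1, the precursor of chymotrypsin B, which cuts after aromatic residues, gave the smallest difference of the 10. It made up 20.9%, 19.2%, 16.8% and 19.6% of the enzyme counts in fasted 1, 3, 4 and 5, against 19.7%, 22.1%, 18.2% and 17.2% in fed 1, 3, 4 and 5. The groups overlapped throughout (log2 ratio -0.01 ± 0.13, exact p = 0.857). There were 1.54, 1.62, 2.20 and 1.80 trypsinogen counts per Ctrb1 count in fasted libraries, against 2.02, 1.69, 2.09 and 2.06 in fed ones (exact p = 0.343).

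The elastases are Cela1, which cuts after small residues, and Cela2a. Cela1 made up 0.91%, 1.78%, 1.64% and 1.64% of the enzyme counts in fasted libraries, against 1.19%, 1.90%, 1.65% and 1.51% in fed ones. Number 1 was the lowest library in each group (log2 ratio -0.09 ± 0.27, exact p = 0.743). Cela2a made up 5.11%, 3.24%, 4.09% and 5.04% in fasted libraries, against 4.67%, 3.96%, 4.78% and 7.65% in fed ones. Its highest value was fed 5, and the groups overlapped (log2 ratio -0.26 ± 0.27, exact p = 0.457). Cela2a overlaps Ctrc on the same strand, which had 11222 counts in all, so reads of the shared stretch could not be assigned with certainty.

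Carboxypeptidases trim residues from the carboxyl end, Cpa1 the aromatic and aliphatic ones and Cpb1 the basic ones. Cpa1 made up 20.4%, 19.5%, 25.3% and 22.3% of the enzyme counts in fasted 1, 3, 4 and 5, against 19.5%, 19.0%, 22.6% and 22.2% in fed 1, 3, 4 and 5. It was higher in fasted at 4 of 4 numbers, by less than the spread between numbers (log2 ratio 0.08 ± 0.13, exact p = 0.543). Cpb1 made up 5.12%, 3.79%, 6.21% and 4.44% in fasted libraries, against 5.45%, 6.04%, 5.72% and 3.96% in fed ones (log2 ratio -0.13 ± 0.21, exact p = 0.600), with no order between the groups. The ratio of both carboxypeptidases to the 3 trypsinogens was 0.792, 0.750, 0.851 and 0.756 in fasted libraries, against 0.627, 0.672, 0.745 and 0.738 in fed ones. These did not overlap, although fasted 3 and fed 4 lay close together (exact p = 0.0286). It was 1 of 7 class ratios chosen after values were seen, and the 6 others overlapped. This ratio is made up mostly of Cpa1 and 2210010C04Rik counts, so it is not a separate result from the ratio of that pair given below.

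The largest difference was that of Clps, colipase, the cofactor that anchors pancreatic lipase to fat droplets. It made up 11.1%, 18.5%, 5.48% and 7.08% of the enzyme counts in fasted 1, 3, 4 and 5, against 5.18%, 5.17%, 4.55% and 7.02% in fed 1, 3, 4 and 5. Fasted 1 and 3 were above all other libraries, fasted 4 and 5 lay close to the fed ones, and the groups overlapped at fasted 4 and fed 5. The log2 ratio was 0.89 ± 0.46, higher in fasted at 4 of 4 numbers, and missed the threshold (exact p = 0.0571). By number the differences were 1.19, 2.06, 0.28 and 0.01, and without fasted 1 and 3 the value was 0.22 (exact p = 0.333, where 2 libraries against 4 cannot go below 0.0667). Behind the high shares stand 5728 and 13283 Clps counts in fasted 1 and 3, the libraries with 2.52% and 2.82% enzyme counts. The part of the low acinar share in this difference was not tested.

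Cel, the bile salt-activated lipase that cleaves cholesteryl esters, was the enzyme with the lowest log2 difference. It made up 4.26%, 3.04%, 3.40% and 4.59% in fasted libraries, against 4.43%, 4.44%, 4.44% and 5.09% in fed ones. The fed values lay close together, and only fasted 5 lay within their range (log2 ratio -0.29 ± 0.15, lower in fasted at 4 of 4 numbers, exact p = 0.114). With the other acinar secretory genes as denominator it passed (-0.31, exact p = 0.0286).

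**Figure D3:**
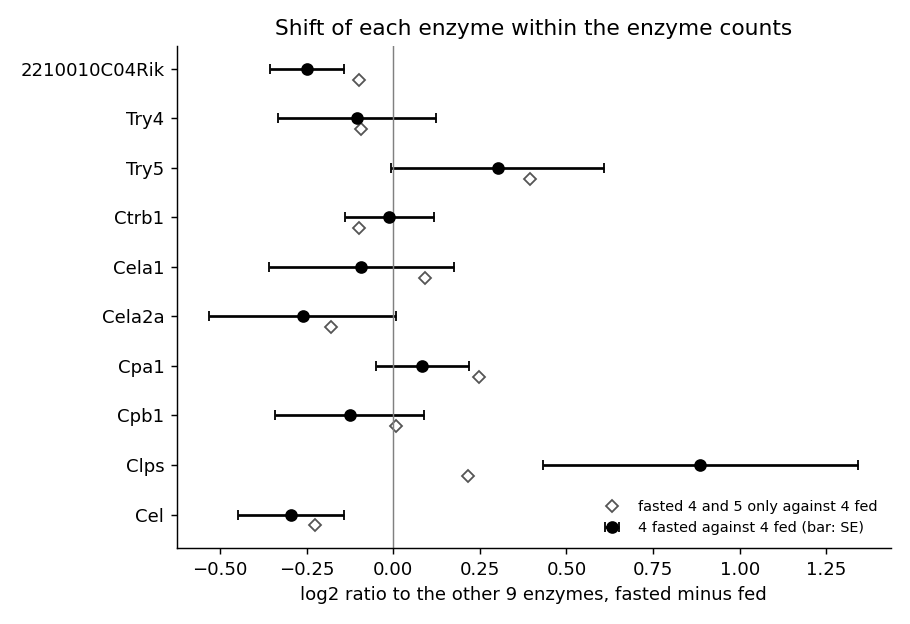
Difference in the log2 ratio of each enzyme to the other 9 enzymes, fasted minus fed: filled points with SE bars use 4 fasted and 4 fed libraries, open diamonds use fasted 4 and 5 only. Clps is at 0.89 with all libraries and 0.22 without fasted 1 and 3, and the other 9 lie between -0.29 and 0.30 with all libraries.

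Of the 45 ratios between pairs of enzymes, 3 (6.67%) did not overlap between the groups; among 136 pairs of the other acinar secretory genes with at least 20 counts in every library, 4.41% did not. Each of the 3 had the smallest p that the unpaired test allows (exact p = 0.0286, unadjusted over 45 pairs). Paired by library number, p could not go below 0.125. There were 1.36, 1.39, 1.30 and 1.37 2210010C04Rik counts per Cpa1 count in fasted 1, 3, 4 and 5, against 1.81, 1.66, 1.48 and 1.46 in fed 1, 3, 4 and 5. The fasted libraries were tightly grouped below the fed ones, also those with high enzyme shares. Their log2 difference was -0.24, and -0.26 without fasted 1 and 3 (exact p = 0.133, where 2 libraries against 4 cannot go below 0.0667). By number it shrank from -0.41 and -0.26 at 1 and 3 to -0.19 and -0.09 at 4 and 5. There were 2.61, 6.07, 1.61 and 1.54 Clps counts per Cel count in fasted libraries, against 1.17, 1.16, 1.03 and 1.38 in fed ones. The log2 difference was 1.09, and 0.42 without fasted 1 and 3 (exact p = 0.0667). For Cela2a to Clps the ratios were 0.460, 0.175, 0.747 and 0.712 in fasted libraries, against 0.902, 0.767, 1.05 and 1.09 in fed ones. That log2 difference was -1.05, and -0.37 without fasted 1 and 3 (exact p = 0.133). Clps enters 2 of the 3 pairs, so they are not separate results.

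**Figure D4:**
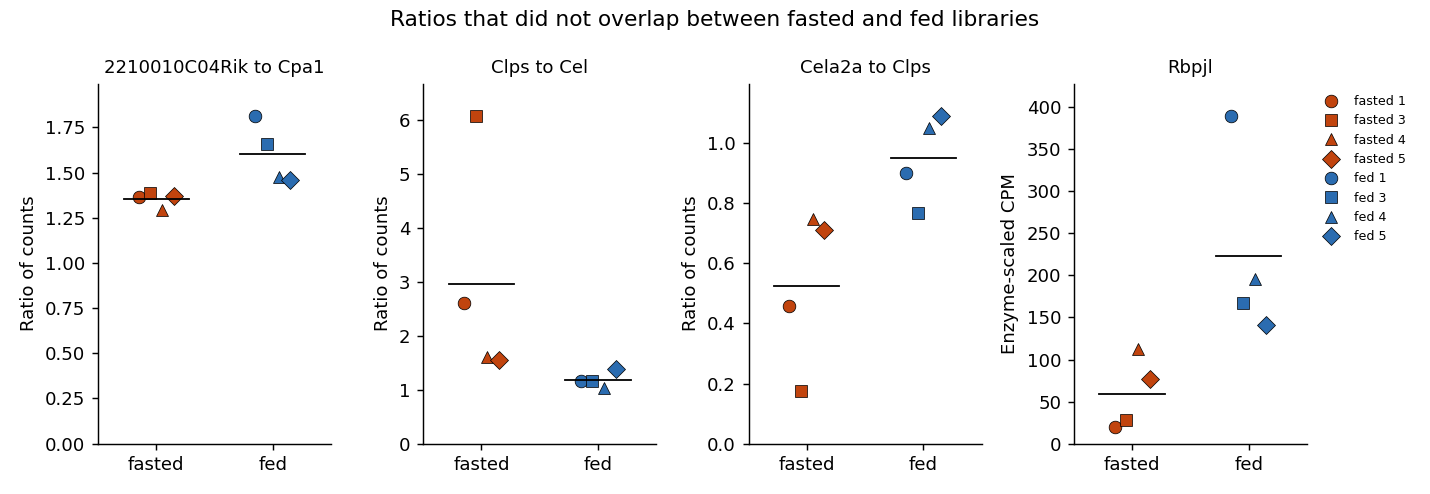
Values in each library, fasted left and fed right, for the ratios of 2210010C04Rik to Cpa1, Clps to Cel and Cela2a to Clps and for Rbpjl in enzyme-scaled CPM (Rbpjl counts scaled to the summed enzyme counts); symbols mark library numbers and lines are means of 4. In each panel the fasted values lie wholly on one side of the fed ones, with Clps to Cel at 6.07 in fasted 3 and Rbpjl at 389 in fed 1.

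Other genes of acinar secretion were set on the same scale as the enzymes. Of 41 listed, 37 were in the table and 17 had at least 20 counts in every library. Of these 17, 0 did not overlap between the groups per enzyme count, the median log2 difference was 0.08 and each spanned 1.37-fold to 2.10-fold over the libraries. Pdia2 fell under that cut, with 19 counts in fasted 1. Per enzyme count its log2 difference was 0.21 ± 0.07, with the lowest p of the 37 (exact p = 0.0286, unadjusted), although its groups overlapped. Of the 37, the 3 with the most counts were Rnase1, the pancreatic ribonuclease, Ctrl, a chymotrypsin-like protease, and Pnlip, pancreatic triglyceride lipase. On a scale of CPM in which the summed counts of the 10 enzymes stand in for the library size, here called enzyme-scaled CPM, Pnlip had 24569, 29277, 22490 and 24656 in fasted 1, 3, 4 and 5, against 20773, 24132, 26061 and 22343 in fed 1, 3, 4 and 5 (log2 difference 0.11 ± 0.11, exact p = 0.314). Clps counts per Pnlip count, the pair that works together on fat, were 4.52, 6.32, 2.44 and 2.87 in fasted libraries, against 2.49, 2.14, 1.75 and 3.14 in fed ones (exact p = 0.143). Again fasted 1 and 3 were the highest. This order was not particular to Clps. Pla2g1b stood at 16690 and 16038 enzyme-scaled CPM in fasted 1 and 3, against 8408 to 12953 in the other libraries. Spink3 stood at 1320 and 1643, against 820 to 1275. Rnase1, Ctrl and Pnlip did not share the order.

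Regulators of acinar cells were sparse. Rbpjl, the acinar subunit of PTF1, had 1, 2, 515 and 417 counts in fasted 1, 3, 4 and 5, against 251, 395, 3059 and 324 counts in fed 1, 3, 4 and 5. In enzyme-scaled CPM it stood at 19.4, 27.8, 113 and 77.0 in fasted libraries, against 389, 168, 196 and 141 in fed ones. The groups did not overlap for this gene, 1 of the 8 listed regulators. On the same scale 0.273% of the 7700 genes tested did not overlap, and on TMM-scaled CPM 271 of them. The first share is not a chance rate for an acinar gene, since genes of other cells were high per enzyme count in fasted 1 and 3. The exact Poisson 95% intervals were 0.491 to 108 in fasted 1 and 3.37 to 101 in fasted 3, below the lowest fed value. The log2 difference, with 0.5 added to the counts, was -1.92 ± 0.56 (exact p = 0.0286), and -1.15 without fasted 1 and 3. The edgeR fit with summed enzyme counts as library size gave -1.86 ± 1.76 (adjusted p = 0.306). That fit called 0 of the 7700 genes, although 5541 had an unadjusted p under 0.05, and the median log2 fold change was 4.13. It therefore could not single out any gene. The edgeR fit on TMM-scaled libraries gave -1.52 ± 1.42 for Rbpjl and did not call it. Cckar, the cholecystokinin receptor through which a meal triggers enzyme release, stood at 77.6, 153, 118 and 88.1 enzyme-scaled CPM in fasted libraries, against 155, 148, 211 and 152 in fed ones (exact p = 0.114). Bhlha15, a factor of secretory cell architecture, stood at 77.6, 83.5, 21.7 and 19.4 in fasted libraries, from 4 to 105 counts, against 24.8, 29.7, 49.98 and 38.8 in fed ones (exact p = 0.657). It was highest in fasted 1 and 3, where Rbpjl was lowest, on 4 and 6 counts.

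Across the 8 libraries, the genes whose log2 CPM followed the summed enzyme share most closely were acinar too. Among 1319 other genes with a mean of at least 50 CPM, the 5 highest were Pnlip, Pdia2, Zg16, Rnase1 and Pnliprp2, and 18 of the 20 highest were on the acinar lists. Pdia2 is a pancreatic protein disulfide isomerase, Zg16 a zymogen granule protein and Pnliprp2 a lipase-related protein. Pearson's r for these 5 was 0.996 to 0.998 and Spearman's rho 0.76 to 0.98. Since fasted 1 and 3 stand apart from the rest, r over the other 6 libraries was also taken and ran from 0.80 (Zg16) to 0.97 (Pnlip). The 5 lowest were Egr1, Jdp2, Atp5l, Rpl17 and Ndufa6, at r of -0.98 to -0.97 over 8 libraries and -0.98 to -0.72 over 6. Egr1 stood at 530, 351, 81.3 and 59.9 CPM in fasted 1, 3, 4 and 5, against 127, 95.3, 64.0 and 64.4 CPM in fed 1, 3, 4 and 5. Since CPM sum to a fixed total, a larger enzyme share leaves fewer CPM to all other genes, and these correlations are descriptions with no test.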

How the data were processed

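RNA of ILC2 from fasted and fed mice was extracted with Trizol and made into CEL-seq2 libraries, a 3′ end method that barcodes each sample, per the labels' protocols. The submitters' processing notes name STAR, edgeR and mm10 without versions. Each deposited value is a count for a gene, a whole number that the authors had not normalized as far as the values show; whether they count reads or molecular identifiers, and whether strand was used, could not be read from the labels or files.

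The 10 members and all gene lists were chosen with earlier results of these data known. The 4 sequencing files hold both treatments, so groups come from the column names, and 2 further columns, named as another control and another fasting library, were not used here, since no more columns than files were taken for a treatment. The 11 rows of spike-in controls, with 20 counts in all, were left out.

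For levels, the robust quasi-likelihood test of edgeR 4.0.16 (R 4.3.3) was run with TMM factors and no covariates on the 7700 genes that filterByExpr kept, adjusted by Benjamini-Hochberg, threshold 0.05. Log2 ratios within a library were compared by exact two-sided permutation tests over 70 assignments, unadjusted and without pairing by number. With that pairing the smallest possible p is 0.125. Alternatives were other scalings, filters and denominators, DESeq2 1.42.0, a replicate block and libraries left out. The fit of fasted against fed was tested on simulated data with 200 of 7700 genes altered, where it found 53% of the 4-fold and 88% of the 16-fold changes and made 146 calls, 5 of them false. The altered genes were drawn at random, and before alteration each gene had the same scaled mean in all libraries, so none was made poor in enzymes. These rates therefore do not give the power for the enzymes, whose standard errors were 1.18 to 1.43.

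Named genes are the 10 enzymes, the 3 genes with most counts of each list where a result turns on them, and the 5 highest and 5 lowest correlations with the enzyme share. A few further listed genes, such as Prss2, Pla2g1b and Spink3, are named beside a result they bear on, with values known. The class ratios, the minimum of 20 counts, the scale per enzyme count, the fold ranges without fasted 1 and 3 and the motif distance were chosen after values or sequences were seen. Transcript similarity was first taken over the longest transcripts and then redone over the best-matching ones, and a relation to transcript length was tried and left out.

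Libraries of the same number deviated together from their group means, with correlations of 0.23, 0.14, 0.50 and 0.13 over tested genes. Among unlike numbers, fasted 5 with fed 4 (0.22) and fasted 3 with fed 1 (0.20) correlated more than fasted 3 and 5 did with their own numbers. Each same-number value is above 0.1, the level set for treating numbers as pairs, although the labels do not say so. All pairs of libraries of a group differed beyond counting noise, with a chi-square of at least 15.2 per gene. Wilson and Poisson intervals are at 95% and cover counting error only.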

Additional observations from a re-analysis of the deposited data

Results flagged for a closer look

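In 5 of 68 groups of 4 libraries examined, 1 library lay far from its 3 neighbours by Dixon's 95% criterion for a gap against the group's range; chance gives about 1 in 20. The share of the library taken by Try5 was 1.27% in fed 4, against 0.41% to 0.52% in the other fed libraries. The Cela1 share of the enzyme counts was 0.914% in fasted 1, against 1.64% to 1.78% in the other fasted ones. The Cel share of the enzyme counts was 5.09% in fed 5, against 4.43% to 4.44% in the other fed ones. Cckar stood at 211 enzyme-scaled CPM in fed 4, against 148 to 155 in the other fed ones. The ratio of the 3 trypsinogens to Ctrb1 was 1.69 in fed 3, against 2.02 to 2.09 in the other fed ones.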

How the results depend on the processing

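Other scalings, filters, DESeq2 and the replicate block kept the sign of all 10 enzyme levels and called 0 of them. The count of genes called over the whole table, 0 at first, was 1 with library totals, 1 with no filter on low counts and 8 with DESeq2, and was 0 in each fit with a single library left out. Leaving out fasted 1 and 3 reversed the log2 level of each enzyme: 0.50 for 2210010C04Rik, 0.61 for Try4, 0.76 for Try5, 0.55 for Ctrb1, 0.62 for Cela1, 0.29 for Cela2a, 0.69 for Cpa1, 0.59 for Cpb1, 0.78 for Clps and 0.37 for Cel. With single libraries left out, the level ran from -1.20 to 0.0146 for Try4, -1.04 to 0.78 for Try5, -1.09 to 0.12 for Cela1, -0.92 to 0.20 for Cpa1, -1.11 to 0.16 for Cpb1 and -1.06 to 0.21 for Clps. The summed share differed by -27.1 to -8.51 points with single libraries left out, by 9.90 points without fasted 1 and 3, and otherwise by -21.8 to -11.4 points.

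For the log2 ratio to the other enzymes, single libraries left out gave -0.24 to 0.0902 for Try4, -0.078 to 0.0734 for Ctrb1, -0.22 to 0.13 for Cela1 and -0.0119 to 0.15 for Cpa1. Without fasted 1 and 3 the sign turned for Cela1 (0.092) and Cpb1 (0.0072). Summing the trypsinogens put Try5 at -0.24, which is the value of the sum, made up mostly of 2210010C04Rik counts. A denominator without trypsinogens, and so without 2210010C04Rik, whose mean share was lower in fasted libraries, put Cpa1 at -0.022. The ratios of 2210010C04Rik, Clps, Cel and Try5 kept their sign under every alternative but that sum. Each passed the threshold only with 1 library left out or, for Cel, with the other secretory genes as denominator. The library left out was each time one through which the groups had overlapped, so these passes are no further support. With single libraries left out the ratios ran from -0.32 to -0.19, 0.52 to 1.18, -0.39 to -0.19 and 0.05 to 0.54. Paired by number, the sign-flip test of the replicate block cannot go below 0.125, so it changed no call: 2210010C04Rik stood at -0.25, Clps at 0.89 and Cel at -0.29.

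Precision was limited by the number of libraries, 4 in each group, and by the spread of fasted enzyme shares, not by depth: the enzymes had 471 or more counts in every library. Rbpjl had 1 and 2 counts in fasted 1 and 3, where library totals were above that of fed 1, which had 251. The summed enzyme counts were lower in fasted 1 and 3, at 51529 and 71830, against 645220 in fed 1. The part of this lower acinar depth in the Rbpjl counts was not tested.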
